A study of Mus musculus with 11 samples.

Results

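Glycolysis and hypoxia response genes were followed as a list of 35 mouse genes, which ran from glucose uptake and the steps to pyruvate and lactate to the oxygen sensors, the hypoxia-inducible factors and their known target genes. Members were found by symbol through the Entrez gene identifier of each row, and all 35 were among the 27179 genes counted. All 35 also passed the filter on low counts, which left 17370 genes for testing. RNA-seq had been performed on basal cells (Lin-CD29+CD24+, low in an E-cadherin-GFP reporter) and luminal cells (the same gate, high in the reporter), sorted from micro-dissected terminal end buds (TEBs, the growing tips of the pubertal gland) and from the ducts behind them. The donors were female C57BL/6 mice aged 5 weeks that carried the reporter, so all groups shared that allele, and each library held cells of at least 2 pooled animals. There were 3 libraries of basal duct, 3 of basal TEB, 3 of luminal TEB and 2 of luminal duct (replicates 1 and 3), since the second luminal duct sample had been discarded for too few cells. No oxygen level was varied.

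Glycolysis splits glucose into pyruvate, and several of its steps are carried out by enzymes that occur as isozymes from separate genes. Hypoxia-inducible factors are pairs of an oxygen-labile subunit (Hif1a or Epas1, which encodes HIF-2α) and a stable partner, and the prolyl hydroxylases Egln1 and Egln3 mark the labile subunit for destruction when oxygen is present. Many glycolytic genes are known targets of these factors, which bind a short core motif, so transcripts of the 2 sets often rise together in cells short of oxygen; the labile subunit itself is controlled mainly as protein, which RNA-seq does not measure.

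The 11 libraries held 27989137 to 49221436 counts. Mitochondrial transcripts took 4.34 to 10.9% of counts in 8 libraries, and 17.8% in basal TEB replicate 3, 28.5% in luminal duct replicate 3 and 37.5% in basal TEB replicate 1. The 7 basal markers (Krt5, Krt14, Krt17, Trp63, Acta2, Myh11, Mylk) summed to 5570 to 19662 counts per 1000000 (CPM, scaled by the TMM method of edgeR) in basal libraries and to 13.9 to 244 in luminal ones, and the 7 luminal markers (Krt8, Krt18, Krt19, Cldn3, Prom1, Esr1, Prlr) to 248 to 527 in basal libraries and 12121 to 18570 in luminal ones. In such bulk samples fewer cells of a type and less RNA per cell cannot be told apart.

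The motif that hypoxia-inducible factors bind was looked up in the 250 bases before each gene start in RefSeq (GRCm38.p6). The letters searched were ACGTG and GCGTG on both strands, and 31 of the 35 members had such a window. Slc2a3, Bnip3l, Epas1 and Ndrg1 are named only. One or both motifs stood in 28 of the 31 members (90.3%), against 41.5% of all 27025 genes with a window and 57.4% of the 12759 of them that were tested here. ACGTG occurred in 58.1% of members and 23.5% of tested genes, and GCGTG in 67.7% and 46.3%. Genes with several annotated starts had several windows and more chances of a match. CACGTG, the E-box that contains ACGTG on both strands, occurred in 6 members (19.4%) and in 9.15% of tested genes. The 3 members with no match were Gpi1, Tpi1 and Eno2, and no match says only that these letters are not in this window. The sequences below are stretches of up to 85 bases upstream of the start, printed 5′ to 3′ on the strand of the gene. They belong to P4ha1, Ldhb and Slc16a1, higher in basal cells of both structures, and to Egln3, called higher in basal cells in TEBs alone. Hk2, higher in luminal cells, and Bnip3, lower in luminal TEBs, are also shown. Slc2a1 and Pgk1 were called by edgeR's quasi-likelihood test in no comparison. Capitals mark either motif on either strand.
P4ha1, chr10:59323093-59323177, plus strand: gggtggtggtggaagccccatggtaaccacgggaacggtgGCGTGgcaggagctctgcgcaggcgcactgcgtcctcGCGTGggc
Ldhb, chr6:142508039-142508123, minus strand: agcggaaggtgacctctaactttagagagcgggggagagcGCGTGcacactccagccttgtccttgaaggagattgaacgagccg
Slc16a1, chr3:104638424-104638508, plus strand: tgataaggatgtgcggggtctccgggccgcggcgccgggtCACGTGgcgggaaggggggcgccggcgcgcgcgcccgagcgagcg
Egln3, chr12:54204059-54204124, minus strand: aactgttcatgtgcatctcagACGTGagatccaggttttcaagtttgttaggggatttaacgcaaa
Hk2, chr6:82774462-82774546, minus strand: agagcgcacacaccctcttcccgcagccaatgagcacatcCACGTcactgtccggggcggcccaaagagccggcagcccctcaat
Bnip3, chr7:138909570-138909654, minus strand: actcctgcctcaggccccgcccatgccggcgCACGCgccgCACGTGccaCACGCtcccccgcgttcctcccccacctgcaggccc
Slc2a1, chr4:119108669-119108744, plus strand: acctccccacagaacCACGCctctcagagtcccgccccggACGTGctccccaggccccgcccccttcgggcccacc
Pgk1, chrX:106186929-106187013, plus strand: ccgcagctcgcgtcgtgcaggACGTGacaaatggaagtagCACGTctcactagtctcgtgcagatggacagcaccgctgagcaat
Members of either direction thus carried the letters, as did members without a call. A match is a description and not a binding site, and no binding was measured here.

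On a scale per length (CPM per kilobase, written RPKM), the members spanned a wide range. Pkm, the pyruvate kinase of most tissues, was the highest in luminal TEBs at 496 ± 41.1 RPKM (SD, n = 3), clear of Tpi1 at 266 ± 37.4. In luminal ducts Pkm also led, at 407 ± 142 RPKM (n = 2). In basal ducts Ldha (lactate dehydrogenase A), Pkm and Gapdh stood at 219 ± 43.2, 212 ± 21.4 and 205 ± 32.3 RPKM (n = 3), closer together than their spread. In basal TEBs Gapdh (245 ± 32.1 RPKM), Pkm (220.0 ± 22.6), Eno1 (192 ± 34.6) and Ldha (188 ± 18.2) followed each other, neighbours again within their spread. At the other end stood Slc16a3 (the lactate exporter MCT4), Eno2 (neuronal enolase), Slc2a3 (the glucose transporter GLUT3), Pfkfb4 and Ankrd37, each below 10 RPKM on average in all 4 groups. Reads of Gapdh, Eno1, Ldha, Pgk1, Pgam1 and Aldoa can be shared with near-identical copies or pseudogenes, and their levels are the less certain for it.

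**Figure D1:**
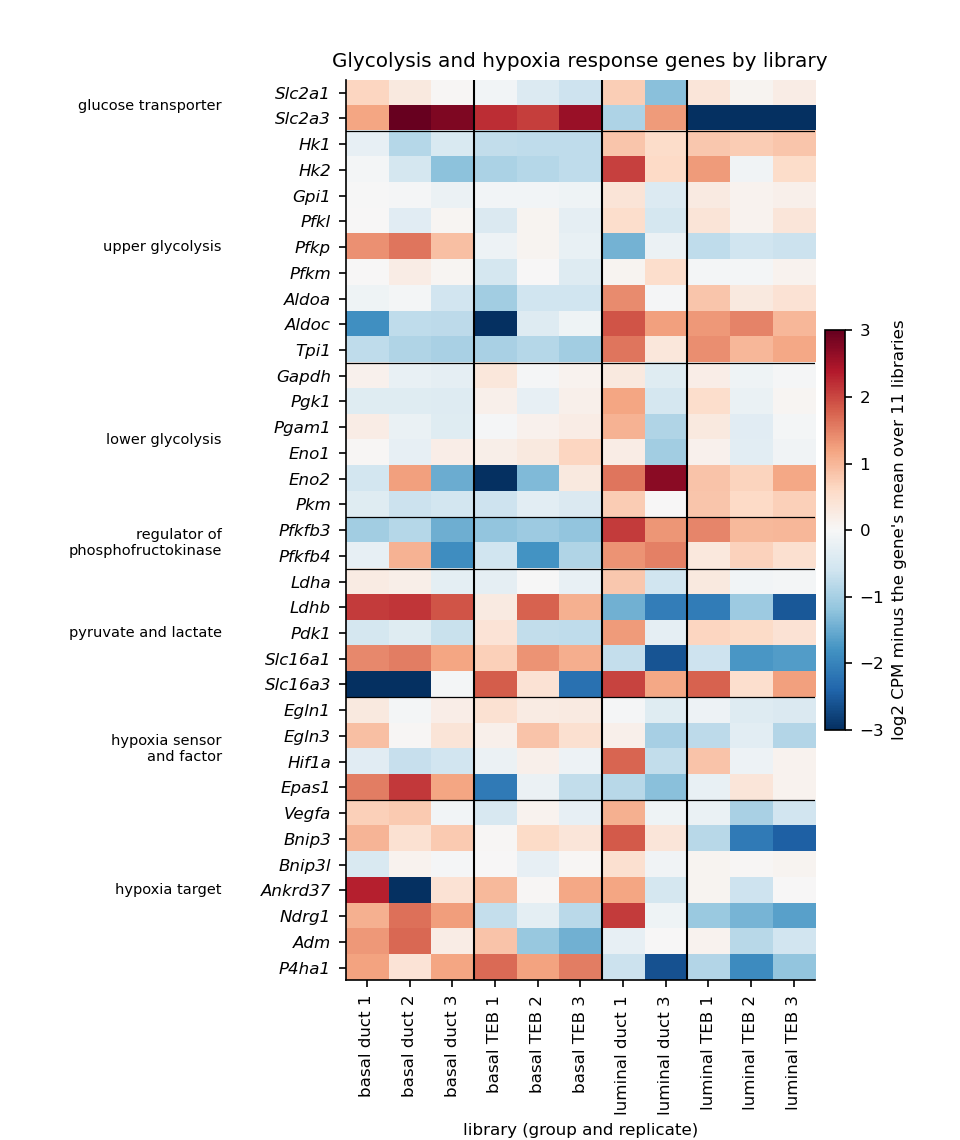
Each row is 1 of the 35 genes, grouped by role, and each column 1 of the 11 libraries; colour gives log2 CPM minus the gene's mean over the 11 libraries, with values beyond 3 in either direction shown at the end of the scale. Columns of luminal cells are redder for Hk1, Tpi1, Aldoc and Pfkfb3 and bluer for Ldhb, Slc16a1 and P4ha1, and luminal duct replicate 1 is redder than replicate 3 for many genes.

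The luminal duct libraries differed for these genes. The members took 0.889% of counts outside mitochondrial genes in luminal duct replicate 1 and 0.412% in replicate 3, against 0.396 to 0.458% in basal ducts, 0.329 to 0.453% in basal TEBs and 0.597 to 0.743% in luminal TEBs. Hif1a, for instance, had 989.5 CPM in replicate 1 and 176 in replicate 3. The libraries differed in other ways too. Replicate 3 had 29522747 counts against 42960489 in replicate 1, and a mitochondrial share of 28.5% against 8.51%. Its basal markers summed to 244 CPM against 86.6, its luminal markers to 12121 against 18570 and its fibroblast markers (named below) to 250 against 6.03. The part of these differences in the members' levels was not tested. Fits without replicate 1 left replicate 3 as the only luminal duct library. Each result on luminal ducts was therefore also computed without either library, with the lone library taken to vary like the other groups.

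Basal and luminal cells differed in members of both arms of the list. Luminal cells had more Hk1, Hk2, Aldoa, Aldoc, Tpi1, Pkm and Pfkfb3 in both structures, and basal cells more Ldhb, Slc16a1 and P4ha1 in both. In ducts 12 of 35 members passed the test (edgeR's quasi-likelihood test over all genes, Benjamini-Hochberg FDR below 0.05), 5 higher and 7 lower in basal cells. Of all 17370 genes 22.3% passed, 12.6% higher and 9.71% lower. In TEBs 14 members passed, 7 in each direction, against 25.1% of all genes, 13.2% higher and 11.8% lower. A total of 10 members passed in both structures, 2 in ducts alone, 4 in TEBs alone and 19 in neither. This overlap was not counted over all genes, so these numbers only describe the members. The median log2 fold change of the members, basal against luminal, was −0.21 in ducts and −0.22 in TEBs, and that of all genes 0.08 and 0.04.

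These counts moved with the luminal duct libraries and with the scaling. Without luminal duct replicate 1, 9 members were higher and 4 lower in basal duct cells and the members' median was 0.40. Without replicate 3, 5 were higher and 11 lower and the median was −0.60. Without TMM scaling the TEB split was 4 higher and 9 lower in basal cells; that setting shifted the median of all genes from 0.04 to −0.35, and the members' median relative to it was −0.26 in either case.

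Among the luminal-high members, Pfkfb3 had the lowest FDR. It makes fructose 2,6-bisphosphate, the strongest activator of phosphofructokinase (Entrez gene 170768, chr2:11471430-11554071 in GRCm38). Pfkfb3 had 52.6, 60.1 and 39.0 CPM in the basal duct libraries and 47.6, 51.3 and 47.6 in the basal TEBs. Luminal ducts had 464 and 269.7 CPM of Pfkfb3, and luminal TEBs 297, 213 and 217. All 5 luminal libraries lay above all 6 basal ones. The log2 fold change of Pfkfb3, basal against luminal, was −2.86 ± 0.26 (SE) in ducts (edgeR FDR 1.32e-05) and −2.31 ± 0.24 in TEBs (edgeR FDR 2.47e-05). Its relative Pfkfb4 had 2.72 to 20.7 CPM in basal and 12.4 to 28.7 in luminal libraries and was not called by edgeR's quasi-likelihood test in either structure, although limma voom called it lower in basal ducts and DESeq2 and the fit without TMM scaling lower in basal TEBs.

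Tpi1, triose phosphate isomerase, had 110.4, 100.1 and 95.5 CPM in basal ducts and 94.7, 104 and 91.2 in basal TEBs. The luminal values of Tpi1 were 568 and 236 CPM in ducts and 488, 369 and 418 in TEBs. Basal libraries varied little and lay below each luminal one. The log2 fold changes of Tpi1 were −1.98 ± 0.29 in ducts (edgeR FDR 0.000395) and −2.14 ± 0.27 in TEBs (edgeR FDR 0.000105). Without luminal duct replicate 1 the duct value was −1.21 and still passed.

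The hexokinases trap glucose in the cell. Hk1, the general form, had 94.3, 61.8 and 81.7 CPM in basal ducts, 67.4, 65.5 and 66.4 in basal TEBs, 201 and 164 in luminal ducts and 197, 191 and 199.8 in luminal TEBs. The groups of the cell types did not overlap, and luminal libraries sat within a narrow range. Hk1 changed by −1.20 ± 0.19 (log2, basal against luminal; edgeR FDR 0.000642) in ducts and −1.56 ± 0.18 (edgeR FDR 4.07e-05) in TEBs. Hk2, the inducible form, had 16.9 to 37.8 CPM in the 6 basal libraries and 164, 59.1, 95.5, 36.5 and 57.7 in the luminal ones, where luminal TEB replicate 2 fell below basal duct replicate 1. Its log2 fold changes were −2.03 ± 0.46 in ducts (edgeR FDR 0.00744) and −1.54 ± 0.43 in TEBs (edgeR FDR 0.0194). The duct call of Hk2 was lost without luminal duct replicate 1 (−1.12, FDR 0.130), and its TEB call without any 1 basal TEB library, without luminal TEB replicate 1 and under both limma voom fits (FDR up to 0.0997).

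Aldolase C, a minor isozyme of the split into trioses, rose in luminal cells next to the main isozyme, aldolase A. Aldoc had 9.24, 19.5 and 19.2 CPM in basal ducts, 4.16, 25.3 and 30.1 in basal TEBs, 124 and 77.8 in luminal ducts and 81.4, 93.0 and 65.9 in luminal TEBs. All luminal values exceeded all basal ones, and basal TEB replicate 1, the library with the largest mitochondrial share, had the lowest. The log2 fold changes of Aldoc were −2.66 ± 0.60 in ducts (edgeR FDR 0.00695) and −2.005 ± 0.55 in TEBs (edgeR FDR 0.0187; 0.0557 without luminal TEB replicate 2). Aldoa had 203 to 291 CPM in basal ducts, 147 to 200.4 in basal TEBs, 807 and 296 in luminal ducts and 372 to 539 in luminal TEBs. Aldoa passed in TEBs (−1.27 ± 0.32, edgeR FDR 0.0119; 0.0556 without luminal TEB replicate 1) and barely in ducts (−1.10 ± 0.35, edgeR FDR 0.0401). Without luminal duct replicate 1 the duct value of Aldoa was −0.20 (FDR 0.635), and the call was also lost with replicate as a block (FDR 0.0636), in a fit of the duct groups alone (0.132) and without TMM scaling; leaving out any 1 of 8 other libraries (all but luminal duct replicate 3 and basal TEB replicate 1) ended it too.

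Pkm carried the same direction at high level. It had 613, 504 and 539.7 CPM in basal ducts, 510.2, 627 and 578 in basal TEBs, 1321 and 797 in luminal ducts and 1395, 1182 and 1293 in luminal TEBs. No basal library reached a luminal one. Pkm changed by −0.94 ± 0.23 (log2; edgeR FDR 0.0124) in ducts and −1.17 ± 0.21 (edgeR FDR 0.00154) in TEBs, with the duct call lost without luminal duct replicate 1 (−0.53, FDR 0.117), without TMM scaling (FDR 0.169) and in a fit of the duct groups alone (FDR 0.0815). The gene count adds the M1 and M2 splice forms and does not tell them apart.

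**Figure D2:**
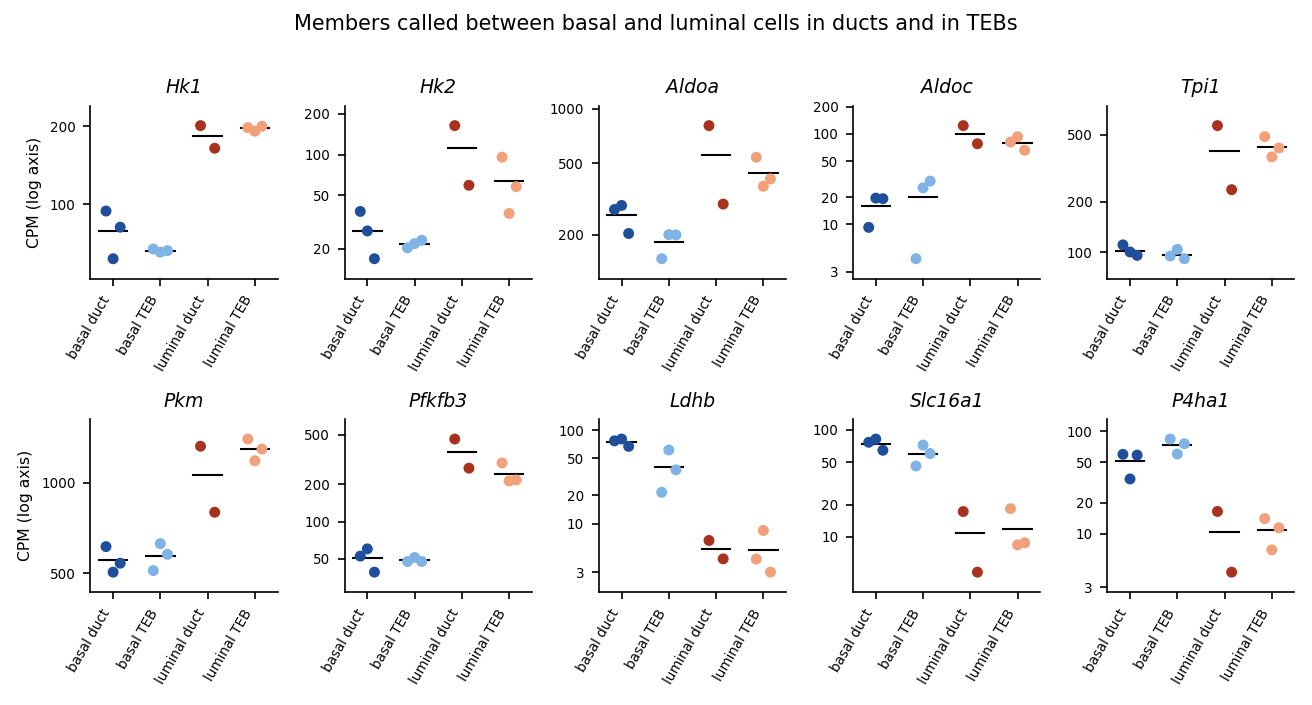
CPM on a log axis in each library for the 10 members that passed between basal and luminal cells in both structures; points are libraries and black lines group means. Hk1, Tpi1, Pkm, Pfkfb3, Aldoc, Ldhb, Slc16a1 and P4ha1 show basal and luminal libraries that do not overlap. The genes were chosen by their calls in the same libraries, which favours such separation.

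Ldhb and Slc16a1, which both act on lactate, were higher in basal cells. Ldhb, the lactate dehydrogenase subunit typical of oxidative tissues (Entrez gene 16832, chr6:142490249-142507957 in GRCm38), had 76.6, 80.1 and 66.9 CPM in basal ducts and 21.6, 61.1 and 37.5 in basal TEBs. Luminal libraries had 6.60 and 4.19 CPM of Ldhb in ducts and 4.17, 8.44 and 3.02 in TEBs. Every basal library lay above every luminal one, the lowest again being basal TEB replicate 1. The log2 fold change of Ldhb was 3.78 ± 0.55 in ducts (edgeR FDR 0.000381) and 2.94 ± 0.45 in TEBs (edgeR FDR 0.000404). Ldha, the other subunit, had 328 to 483 CPM in basal ducts, 335 to 402 in basal TEBs, 267 and 709.6 in luminal ducts and 383 to 496 in luminal TEBs, and passed in neither structure.

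Slc16a1, the lactate and pyruvate transporter MCT1, had 76.7, 82.3 and 64.6 CPM in basal ducts, 46.1, 72.2 and 60.2 in basal TEBs, 17.3 and 4.69 in luminal ducts and 18.4, 8.44 and 8.80 in luminal TEBs. Basal libraries all exceeded the luminal ones. The log2 fold change of Slc16a1 was 2.75 ± 0.53 in ducts (edgeR FDR 0.00265) and 2.33 ± 0.44 in TEBs (edgeR FDR 0.00206). Slc16a3 (MCT4) was the lowest or next to lowest member per length in each group. Basal ducts gave 0, 0 and 17 reads, basal TEBs 30, 30 and 2, luminal ducts 88 and 26 and luminal TEBs 74, 35 and 59. It was not called by edgeR's quasi-likelihood test in either structure, although limma voom and the fit without basal duct replicate 3 called it lower in basal than in luminal ducts, and a count of 0 allows up to 3 reads, or 0.0599 and 0.0789 CPM in basal duct replicates 1 and 2 (counting error only).

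P4ha1, the catalytic subunit of collagen prolyl 4-hydroxylase and a known hypoxia target, had 59.5, 34.2 and 58.5 CPM in basal ducts, 84.0, 59.96 and 75.5 in basal TEBs, 16.5 and 4.19 in luminal ducts and 14.0, 6.93 and 11.4 in luminal TEBs. Cell types again did not overlap. P4ha1 changed by 2.29 ± 0.53 (log2; edgeR FDR 0.00784) in ducts and 2.76 ± 0.46 (edgeR FDR 0.000768) in TEBs; the duct call was lost under limma voom with quality weights (FDR 0.0622). The 6 fibroblast markers (Col1a1, Col1a2, Col3a1, Pdgfra, Dcn, Lum) summed to 430 to 840 CPM in basal ducts, 226 to 406 in basal TEBs, 6.03 and 250 in luminal ducts and 11.7 to 53.1 in luminal TEBs; none was at 0 in a whole group, and their part in the P4ha1 difference was not tested.

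The oxygen sensors Egln1 and Egln3, the prolyl hydroxylases PHD2 and PHD3, passed in TEBs and not in ducts. Egln1 had 58.1, 50.3 and 51.0 CPM in basal TEBs and 37.9, 32.2 and 31.1 in luminal TEBs, groups that did not overlap (log2 fold change 0.66 ± 0.19, edgeR FDR 0.0238). Egln3 had 37.0, 60.4 and 46.3 CPM in basal TEBs and 19.5, 26.6 and 18.1 in luminal TEBs, also apart (1.16 ± 0.34, edgeR FDR 0.0248). Both calls were lost without TMM scaling (0.22 for Egln1, 0.81 for Egln3) and on leaving out some TEB libraries: basal TEB replicate 1 or luminal TEB replicate 2 or 3 for Egln1, and basal TEB replicate 2 or 3 or luminal TEB replicate 1 or 3 for Egln3. In ducts Egln1 ran from 40.3 to 52.1 CPM in basal and from 32.6 to 41.1 in luminal libraries, and Egln3 from 34.4 to 62.7 and from 16.7 to 37.3. The test of the difference between structures called neither gene.

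**Figure D3:**
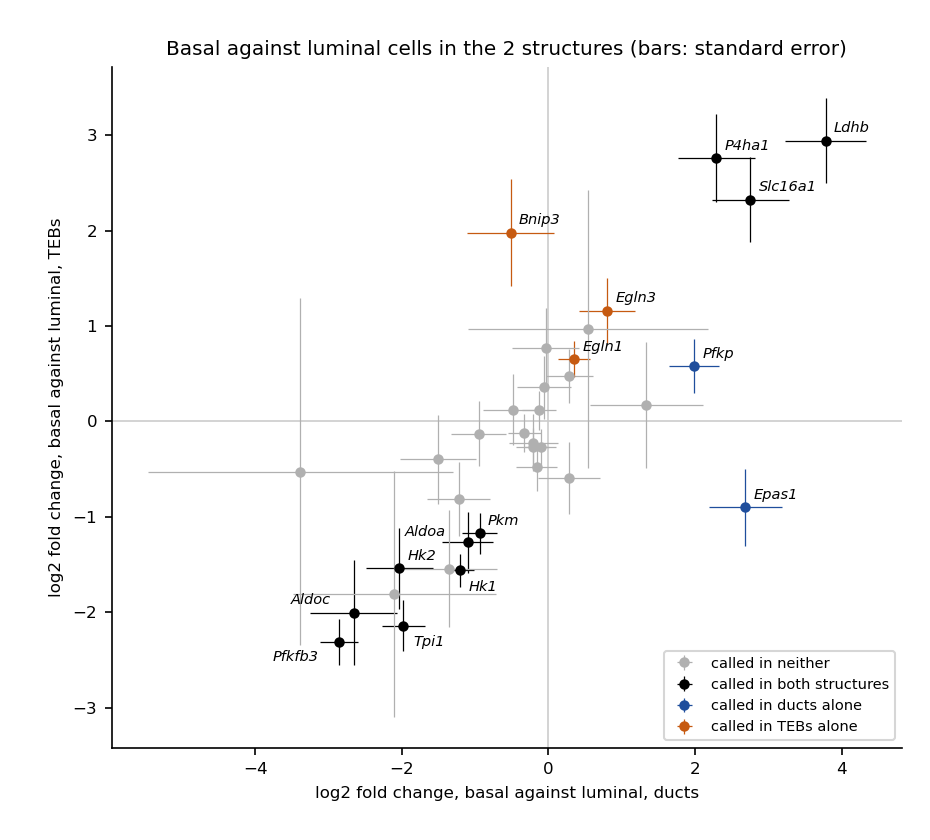
Log2 fold change of basal against luminal cells in ducts (horizontal) and in TEBs (vertical) for 34 members, with standard errors as bars; Slc2a3 is left out because its luminal TEB libraries held no reads. The 10 genes called in both structures lie on 1 side of 0 on both axes, 3 higher and 7 lower in basal cells, and Epas1 lies on opposite sides.

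Between TEBs and ducts few members differed, and all that passed were lower in TEBs. In basal cells 2 of 35 passed, Epas1 and Pfkp, against 1.32% of all genes (29 higher and 201 lower). In luminal cells 3 passed, Slc2a3, Bnip3 and Ndrg1, against 1.41% (111 higher and 134 lower). Averaged over the cell types 3 passed, again Slc2a3, Bnip3 and Ndrg1, against 3.14% (212 higher and 334 lower). This average is made from the same 2 comparisons, and in basal cells the quasi-likelihood test called none of these 3 genes. No member was called higher in TEBs by edgeR in basal cells, luminal cells or the average. Few genes of any kind were called higher, so this absence does not set the list apart. At an unadjusted p under 0.05 edgeR had 0 members higher in basal cells, 1 in luminal cells and 0 in the average, and DESeq2 and limma voom called 0 higher in each. The members' median log2 fold change, TEB against duct, was −0.22 in basal and −0.26 in luminal cells, against −0.03 and 0.04 for all genes. Without luminal duct replicate 1, however, the luminal median of the members was 0.36 (all genes 0.21), and Slc2a1 and Tpi1, named here after their values were seen, were called higher in TEBs and Slc2a3 and Ndrg1 lower. Without replicate 3 the luminal median was −0.63. Without TMM scaling no member passed in either cell type; the median of all genes then moved to −0.16 in basal and 0.42 in luminal cells, and the members' median relative to it was −0.18 and −0.31, beside −0.19 and −0.30 with TMM.

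Several lists of markers moved with structure as well. The basal markers summed to 15633 to 19662 CPM in basal ducts and 5570 to 8614 in basal TEBs, and the luminal markers to 454 to 527 and 248 to 284 in the same libraries. The 12 proliferation genes summed to 488 to 1101 CPM in basal ducts and 1267 to 1833 in basal TEBs, and to 617 to 652 in luminal ducts and 1425 to 1656 in luminal TEBs. The 7 immediate-early and heat-shock genes of the stress list summed to 10821 to 15468 CPM in basal ducts, 4439 to 6485 in basal TEBs, 10470 to 13082 in luminal ducts and 8176 to 9741 in luminal TEBs. Their part in the results below was not tested.

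Epas1, which encodes HIF-2α (Entrez gene 13819, chr17:86753864-86833410 in GRCm38), was lower in TEBs of basal cells. It had 120.3, 179.9 and 93.9 CPM in basal ducts and 9.52, 36.8 and 24.8 in basal TEBs. In luminal cells Epas1 had 23.4 and 17.4 CPM in ducts and 35.6, 53.2 and 44.4 in TEBs. Basal ducts thus stood above all other groups, while luminal ducts lay below luminal TEBs. From basal duct to basal TEB, Epas1 fell by 2.47 ± 0.42 on the log2 scale (edgeR FDR 0.0157), whereas the luminal value was 1.12 ± 0.46 and did not pass. The test of the difference between these changes gave −3.58 ± 0.63 (log2, basal minus luminal; edgeR FDR 0.033), the only member called there, where 0.443% of all genes passed. In the other direction edgeR's quasi-likelihood test and limma voom called 0 members, the edgeR likelihood ratio test 1 (Slc2a3) and DESeq2 2 (Slc2a3 and Bnip3), and 2 had an unadjusted quasi-likelihood p under 0.05. Slc2a3 was called there in 5 of 22 alternatives, among them no filter and leaving out basal TEB replicate 2 or luminal duct replicate 1. Compared between cell types, Epas1 was higher in basal than in luminal ducts (log2 fold change 2.68 ± 0.50, edgeR FDR 0.00204) and had −0.90 ± 0.40 in TEBs, which passed only with replicate as a block and without basal TEB replicate 2.

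The 5 endothelial markers (Pecam1, Cdh5, Kdr, Tek, Vwf) summed to 12.03, 191 and 20.5 CPM in basal ducts, 8.02, 38.3 and 4.90 in basal TEBs, 39.7 and 52.3 in luminal ducts and 16.4, 21.3 and 23.3 in luminal TEBs, and none was at 0 in a whole group. Basal duct replicate 2 had the most Epas1 and the most endothelial RNA. Replicates 1 and 3 had 120.3 and 93.9 CPM of Epas1 at endothelial sums of 12.03 and 20.5, and the part of endothelial RNA in the Epas1 difference was not tested. The basal call of Epas1 was lost without basal duct replicate 1 or 2 or basal TEB replicate 3 and without TMM scaling (FDR up to 0.104), with log2 fold changes of −2.97 to −2.04 over all 23 alternatives. The difference between cell types kept its call in 13 of 22 alternatives; leaving out basal duct replicate 1 or 2, basal TEB replicate 3, luminal duct replicate 3 or any 1 luminal TEB library ended it, as did omitting TMM scaling and limma voom with quality weights (FDR up to 0.103). Without both libraries of highest mitochondrial share it was −3.02 (FDR 0.0337).

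Hif1a, the other labile subunit, had 234, 182 and 199 CPM in basal ducts and 262, 326 and 265 in basal TEBs, groups that did not overlap but did not pass the test. Luminal values of Hif1a were 989.5 and 176 CPM in ducts and 539, 268 and 316 in TEBs, so that both duct libraries lay outside the TEB range on opposite sides. Per length, Epas1 made up 29.6 to 46.8% of the sum of the 2 subunits in basal ducts, 3.13 to 9.11% in basal TEBs, 2.06 and 8.10% in luminal ducts and 5.55 to 15.02% in luminal TEBs.

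Pfkp, the platelet isoform of phosphofructokinase, had 154, 180.4 and 110.3 CPM in basal ducts, 53.6, 63.1 and 51.0 in basal TEBs, 22.0 and 52.8 in luminal ducts and 35.2, 39.0 and 37.8 in luminal TEBs. Basal ducts exceeded all other libraries. Pfkp fell by 1.41 ± 0.29 on the log2 scale from basal duct to basal TEB (edgeR FDR 0.0389) and was higher in basal than in luminal ducts by 1.99 ± 0.34 (edgeR FDR 0.00118). The TEB change was called in 15 of 23 alternatives: it was lost without basal duct replicate 1 or 2, basal TEB replicate 1 or 3 or any 1 luminal TEB library and without TMM scaling (FDR up to 0.190). The difference of the TEB change between cell types was −1.41 ± 0.43 for Pfkp and did not pass (edgeR FDR 0.18), although it passed without luminal duct replicate 3 (−2.17, FDR 0.0264). The liver and muscle isoforms Pfkl and Pfkm, at 63.6 to 132 and 29.4 to 60.5 CPM over all libraries, passed in no comparison.

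Ndrg1, a stress-responsive gene widely used as a marker of hypoxia (Entrez gene 17988, chr15:66929318-66969641 in GRCm38), was lower in TEBs of both cell types. It had 122, 179.9 and 137 CPM in basal ducts, 34.98, 47.1 and 32.7 in basal TEBs, 247 and 52.9 in luminal ducts and 26.6, 21.9 and 18.6 in luminal TEBs. Within each cell type no duct library overlapped a TEB library. Ndrg1 fell by 2.75 ± 0.47 on the log2 scale in luminal cells (edgeR FDR 0.0191) and by 2.34 ± 0.32 averaged over the cell types (edgeR FDR 0.00366). In basal cells the value was −1.93 ± 0.43, just outside the threshold (edgeR FDR 0.0541), and inside it with replicate as a block (FDR 0.0434) and in 10 other alternatives. The luminal value rested in part on luminal duct replicate 1: without it the change was −1.24 (FDR 0.0278), and without replicate 3 −3.47 (FDR 0.000677). The averaged value passed in all 22 alternatives, from −2.70 to −1.59; the luminal call was lost without any 1 luminal TEB library, without TMM scaling and in a fit of the luminal groups alone (FDR up to 0.102).

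Bnip3, which encodes a receptor for the removal of mitochondria, had 16.2, 10.9 and 13.7 CPM in basal ducts, 8.14, 11.9 and 10.3 in basal TEBs, 28.6 and 10.3 in luminal ducts and 4.46, 1.79 and 1.43 in luminal TEBs. Luminal TEBs lay below all other libraries. Bnip3 fell by 2.93 ± 0.61 on the log2 scale in luminal TEBs against ducts (edgeR FDR 0.0403), by 1.68 ± 0.40 in the average (edgeR FDR 0.0474), and was higher in basal than in luminal TEBs by 1.98 ± 0.56 (edgeR FDR 0.0205). The first was called in 12 of 23 alternatives, the second in 11 of 22 and the third in 19 of 23. With replicate as a block the first 2 had FDRs of 0.0671 and 0.0666, and without luminal duct replicate 1 they were −2.005 (FDR 0.0921) and −1.22 (FDR 0.102). The first was also lost without TMM scaling, in a fit of the luminal groups alone and without any 1 luminal TEB library, basal duct replicate 1 or 3 or basal TEB replicate 2 or 3; the second without TMM scaling and without any 1 library but luminal duct replicate 3 and luminal TEB replicate 1; the third without TMM scaling, basal TEB replicate 2 or luminal TEB replicate 2 or 3 (FDR up to 0.0966). Its relative Bnip3l ran from 62.3 to 121 CPM over all libraries and passed in no comparison.

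Slc2a3 (GLUT3) had no read in any of the 3 luminal TEB libraries. It had 3.37, 18.6 and 10.5 CPM in basal ducts (169, 708 and 408 reads), 6.93, 6.27 and 9.02 in basal TEBs and 0.751 and 3.62 in luminal ducts (33 and 88 reads). Luminal TEBs lay below every other library. The immune genes Ptprc, Cd68, Csf1r, Cd3e and Lyz2 summed to 29.8, 73.3 and 22.9 CPM in basal ducts. Their sums were 25.2, 28.3 and 26.9 CPM in basal TEBs, 12.5 and 40.1 in luminal ducts and 5.403, 15.3 and 5.856 in luminal TEBs. The highest value of Slc2a3 and of the immune sum fell in replicate 2 within basal ducts and in replicate 3 within luminal ducts. Elsewhere the order differed: basal duct replicate 1 had more immune RNA than replicate 3 but less Slc2a3. Luminal TEB replicate 2 had more immune RNA than luminal duct replicate 1 but no Slc2a3 read. The part of immune RNA in Slc2a3 was not tested. Set against 3 reads per library, a mean of 0.0607 CPM, the mean of luminal ducts was at least 36.0-fold higher (at least 12.4-fold with luminal duct replicate 1 alone and 59.6-fold with replicate 3 alone) and that of basal TEBs at least 122-fold higher. These bounds allow for counting error in luminal TEBs only and not for the spread between libraries. The tests gave edgeR FDRs of 0.0179 for luminal TEB against luminal duct, 0.000269 for basal against luminal TEBs and 0.0154 for the average over the cell types; the first was lost without any 1 luminal TEB library, without TMM scaling, under limma voom and in a fit of the luminal groups alone (FDR up to 0.0737), the second was kept in all 23 alternatives and the third was lost under limma voom alone (FDR 0.0618). Slc2a1 (GLUT1) had 31.5 to 124 CPM over all libraries and was not called by the quasi-likelihood test over all libraries. It was called higher in basal than in luminal ducts without luminal duct replicate 1, and lower in basal than in luminal TEBs without replicate 3, in a fit of the TEB groups alone, under limma voom with quality weights and without both libraries of highest mitochondrial share.

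**Figure D4:**
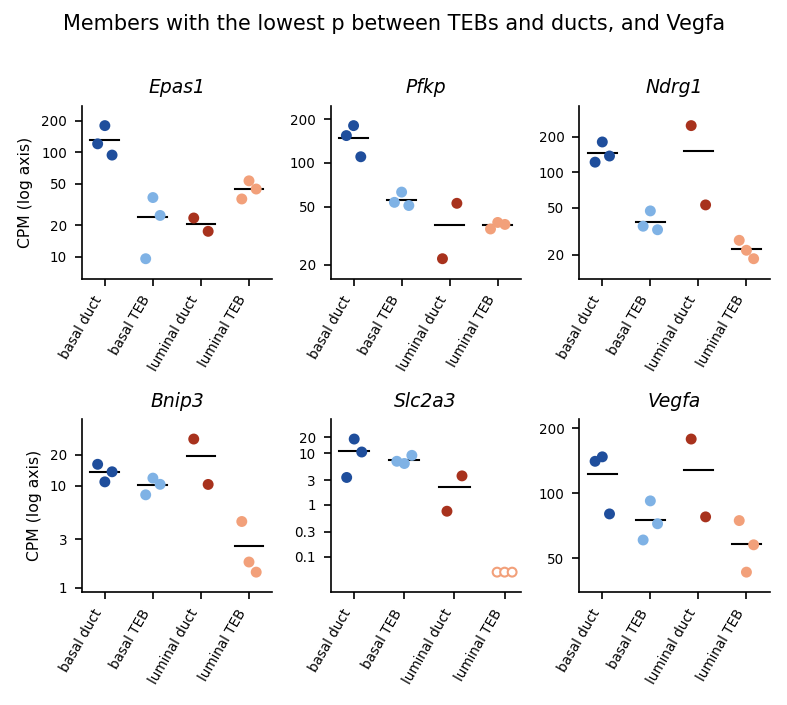
CPM on a log axis in each library for the members named between TEBs and ducts and for Vegfa; points are libraries, black lines are group means, and open circles at the lower edge of Slc2a3 mark libraries with no reads. Epas1 and Pfkp are highest in the 3 basal duct libraries, Ndrg1 is lower in TEBs of both cell types, and Bnip3 is lowest in luminal TEBs.

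The remaining hypoxia targets were not called by edgeR's quasi-likelihood test over all libraries. Vegfa, the angiogenic growth factor, had 140.3, 147 and 80.1 CPM in basal ducts, 60.7, 92.0 and 72.1 in basal TEBs, 178 and 77.6 in luminal ducts and 74.6, 43.1 and 57.6 in luminal TEBs, and the luminal groups did not overlap. DESeq2 called Vegfa lower in luminal TEBs than in luminal ducts, and DESeq2 and the edgeR likelihood ratio test called it lower in TEBs in the average, as did the fits with no filter and without basal duct replicate 3, luminal duct replicate 3 or both libraries of highest mitochondrial share. Adm, which encodes the vasodilator peptide adrenomedullin, had 8.23 to 23.5 CPM in basal ducts and 2.58 to 12.8 elsewhere. Ankrd37 had 0 to 8.32 CPM over all libraries, with no read in basal duct replicate 2. Among glycolytic members Gpi1 (164 to 285 CPM), Gapdh (214 to 345), Pgk1 (59.4 to 194), Pgam1 (81.5 to 312), Eno1 (126 to 411), Eno2 (0 to 11.7) and the pyruvate dehydrogenase kinase Pdk1 (21.1 to 87.1) likewise were not called by that test. For Pgk1, Pgam1 and Pdk1 the highest value was that of luminal duct replicate 1. Pdk1 was called lower in basal than in luminal ducts by the edgeR likelihood ratio test, DESeq2 and limma voom, and lower in basal TEBs by limma voom and without TMM scaling. Without luminal duct replicate 3, Pgk1, Pgam1, Pdk1 and Hif1a were called lower in basal ducts, and without replicate 1 Eno1 was called higher there. Hif1a was also called lower in basal ducts by the edgeR likelihood ratio test and DESeq2. Gpi1, Gapdh, Eno2, Adm and Ankrd37 were called in no comparison under any alternative.

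Since several steps have more than 1 gene, 12 pairs of relatives were compared as log2 ratios per length in each library, basal against luminal, by a two-sided exact permutation test within structure (200 arrangements, smallest p 0.005; p-values adjusted over the 12 pairs). For 5 pairs the adjusted p was below 0.05. The members were chosen with earlier results of these data known. Ldhb, Aldoc and Slc16a1 had already been called between the cell types in both structures, and Pfkp in ducts, from the same libraries. The ratio tests that hold them are therefore no separate support for those calls. Ldhb made up 8.78 to 23.4% of the sum of Ldha and Ldhb in basal libraries and 1.15 to 3.20% in luminal ones, which did not overlap. Its log2 ratio differed by 3.51 (exact permutation p 0.005, adjusted 0.015). Pfkp made up 51.5 to 69.7% of the sum of Pfkp and Pfkl in basal ducts, 37.4 to 42.1% in basal TEBs, 13.4 and 43.6% in luminal ducts and 21.4 to 26.7% in luminal TEBs, a difference of 1.62 on the log2 scale (exact permutation p 0.005, adjusted 0.015) with luminal duct replicate 3 inside the basal range. Aldoc made up 2.94 to 13.9% of Aldoa and Aldoc in basal and 13.9 to 22.0% in luminal libraries, ranges that met without overlap, a difference of −1.46 (exact permutation p 0.005, adjusted 0.015).

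The other 2 such pairs rested on few reads. The log2 ratio of Slc16a3 to Slc16a1 was −9.92 to −3.91 in basal and −2.79 to −1.30 in luminal libraries (exact permutation p 0.005, adjusted 0.015), and that of Eno2 to Eno1 was −13.11 to −6.27 and −7.02 to −4.00 (exact permutation p 0.015, adjusted 0.036). Slc2a3 against Slc2a1 had an adjusted p of exactly 0.05 (exact permutation p 0.025). The pairs Hk2/Hk1, Pfkm/Pfkl, Pfkfb4/Pfkfb3, Bnip3l/Bnip3, Egln3/Egln1 and Epas1/Hif1a had adjusted values from 0.0771 to 0.9. With replicate as a block the smallest p the design allows is 0.0625, and none of the 12 could pass. No pair had an adjusted p below 0.05 without basal duct replicate 3, any 1 luminal TEB library or both libraries of highest mitochondrial share. The smallest possible permutation p was then 0.00833, 0.01 and 0.025 before adjustment, against 0.005 over all libraries. The 5 differences kept their sign in all 15 alternatives.

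**Figure D5:**
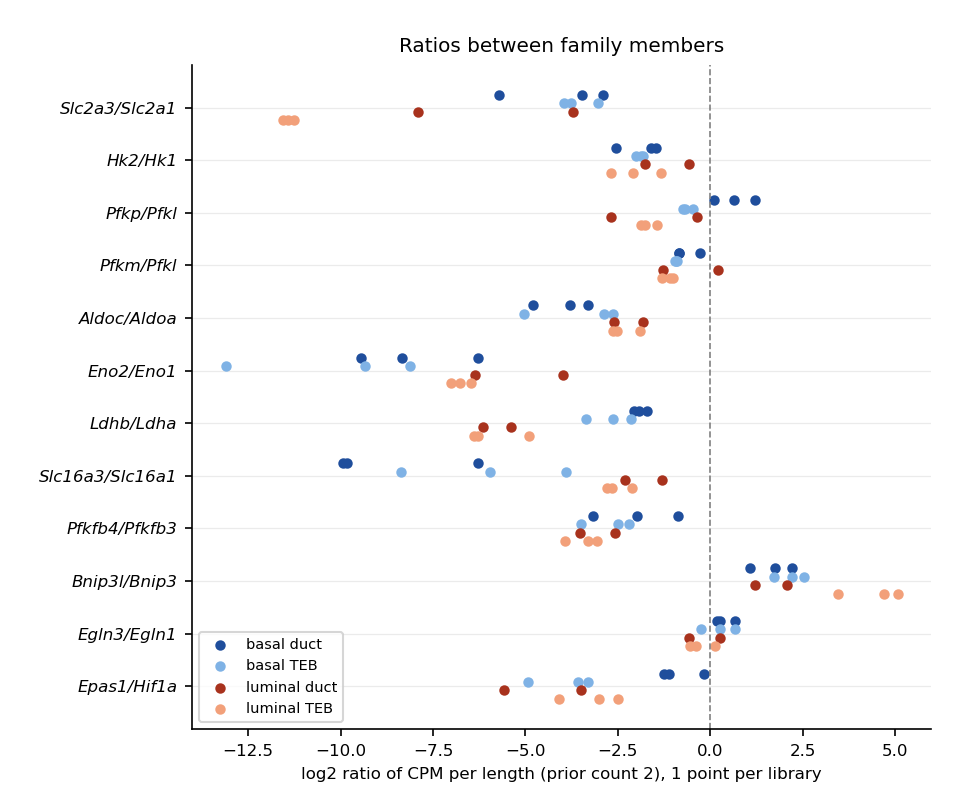
Log2 ratio per length of the 2 members of each of 12 pairs, 1 point per library and 1 colour per group; the dashed line marks equal levels. Basal and luminal points are apart for Aldoc/Aldoa, Ldhb/Ldha and Slc16a3/Slc16a1, and basal ducts stand right of the other groups for Pfkp/Pfkl and Epas1/Hif1a.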

How the data were processed

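RNA had been made into TruSeq RNA v2 libraries, which do not mark strand, and sequenced as 80 bp paired reads. The authors aligned reads to mm10 with Rsubread and deposited whole-number counts per Entrez gene from featureCounts with its inbuilt RefSeq annotation; versions are not given in the sources used here. The deposited gene lengths served for RPKM. The table of the whole series equalled the 11 single files and had 0 further columns of samples. Symbols came from RefSeq.

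Genes with few reads were removed by filterByExpr at a count of 10 and a total of 15, and the rest were TMM-scaled and fitted over all 11 libraries and 4 groups with edgeR's quasi-likelihood test (edgeR 4.0.16, limma 3.58.1, R 4.3.3), with Benjamini-Hochberg adjustment over 17370 genes and a threshold of 0.05. DESeq2 1.42.0 and limma voom were alternatives. Standard errors were taken from the log2 fold change and its F statistic. Ratios of isozymes used log2 CPM per length with a prior count of 2. A count of 0 was given a floor of 3 counts. The fits were tested on simulated data.

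The text gives each member's level, the fold change of every member called, up to 3 of lowest p where fewer were called, and at most 4 called genes of the other pathway lists a comparison. Members and lists were chosen with earlier results of these data known. Each library pooled mice, from 3 independent pools. Whether equal replicate numbers mark a shared pool is not stated outright, and deviations of same-numbered libraries from their group means correlated at −0.068 to 0.163 over 15 pairs (other pairs −0.163 to 0.137), so replicate as a block was an alternative. No pair of libraries agreed within sampling noise. 1 gene of a marker list is not reported here.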

Additional observations from a re-analysis of the deposited data

Results flagged for a closer look

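The change of Epas1 from duct to TEB differed between the cell types: the log2 fold change in basal cells minus that in luminal cells was −3.58 (edgeR FDR 0.033 for the difference itself). That call was kept in 13 of 22 alternatives and was lost, among others, without TMM scaling. Epas1 was lower in basal TEBs than in basal ducts, with a log2 fold change of −2.47, and its value in luminal cells was 1.12, which did not pass. No explanation was tested.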

How the results depend on the processing

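The 38 fold changes followed here were those of every member called, plus members of lowest p where fewer than 3 were called. By that choice 35 of them passed, and 17 of these passed in every alternative that was run (at most 23 for each). None reversed. The numbers of members called moved more. For basal TEB against duct (2 called), no composition normalization and an FDR of 0.01 gave 0, and leaving out 1 library 0 to 3. For luminal TEB against duct (3 called), no composition normalization, a fit of the groups compared alone and an FDR of 0.01 gave 0, and leaving out 1 library 0 to 4. For basal against luminal TEBs (14 called), an FDR of 0.01 gave 8. For the average over cell types (3 called), the likelihood ratio test, DESeq2 and leaving both libraries of highest mitochondrial share out gave 5, and an FDR of 0.01 gave 1. For the difference between cell types (1 called), no composition normalization, limma voom with quality weights and an FDR of 0.01 gave 0, no filter, the likelihood ratio test and leaving those 2 libraries out gave 2, DESeq2 gave 3, and leaving out 1 library 0 to 3. For the isozyme ratios 5 pairs had an adjusted p below 0.05. The replicate block and leaving those 2 libraries out gave 0, and leaving out 1 library 0 to 6. The block allows no p below 0.0625, and leaving those 2 libraries out allows no permutation p below 0.025 before adjustment. The other causes were not tested. The replicate block changed the calls of Bnip3, Aldoa, Ndrg1 and Epas1 given above and no other member named. Composition normalization moved the share of higher calls over all genes. Without it the share was 1.754% in place of 12.6% for basal TEB against duct and 37.2% in place of 52.8% between TEBs. It was 25.9% in place of 38.8% for the average and 6.67% in place of 18.2% for the difference. For luminal TEB against duct it was 50% in place of 45.3%, with 5 genes higher and 5 lower. For basal against luminal ducts it was 62.0% in place of 56.5%. The luminal duct group of 2 libraries, whose members' levels differed, limits each result on it, and p-values measure only the spread between these pools.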

Other observations

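Other genes of both pathways were counted from lists of 36 glycolysis and 30 hypoxia genes that are no members, of which 30 and 30 were tested. Between basal and luminal cells, 2 other glycolysis genes were higher and 5 lower in basal ducts, and 4 were higher and 7 lower in basal TEBs. Of all genes 12.6% were higher and 9.71% lower in ducts, and 13.2% and 11.8% in TEBs. Of the other hypoxia genes 6 were higher and 2 lower in ducts, and 9 were higher and 4 lower in TEBs. Slc2a4, the insulin-responsive glucose transporter GLUT4, averaged 109 ± 9.36 CPM (SD, n = 3) in basal ducts, 86.1 ± 6.31 in basal TEBs, 0.676 ± 0.440 in luminal ducts (n = 2) and 0.578 ± 0.252 in luminal TEBs. Its log2 fold change, basal against luminal, was 7.41 in ducts (edgeR FDR 2.24e-06) and 7.21 in TEBs (edgeR FDR 3.55e-07). Pdk4, a kinase that holds back pyruvate dehydrogenase, had means of 390.1 and 244 CPM in basal ducts and TEBs and of 4.15 and 2.30 in luminal ones (log2 fold changes 6.51 and 6.72, edgeR FDR 0.000293 and 4.66e-05). Pck2, mitochondrial phosphoenolpyruvate carboxykinase, was higher in luminal TEBs (−1.82, edgeR FDR 2.69e-05).

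Angptl4, which encodes an inhibitor of lipoprotein lipase, had means of 397 ± 20.8, 247 ± 37.7, 68.7 ± 28.7 and 25.6 ± 7.31 CPM in basal ducts, basal TEBs, luminal ducts and luminal TEBs. It was higher in basal cells (2.53 in ducts, edgeR FDR 0.000106; 3.27 in TEBs, edgeR FDR 4.11e-06). Stc2, which encodes the glycoprotein stanniocalcin 2, went the other way in ducts (−6.93, edgeR FDR 0.000159), with means of 3.27 CPM in basal and 398 in luminal ducts, and in TEBs, with means of 3.01 and 686 CPM (−7.76, edgeR FDR 5.58e-05, added after its values were seen). Between TEBs and ducts edgeR called 0 of the 30 other glycolysis genes tested in either cell type. Of all genes 1.32% passed in basal and 1.41% in luminal cells, and at such shares a count of 0 says little about these genes. At an unadjusted p under 0.05 edgeR had 2 higher and 1 lower in basal cells and 2 and 2 in luminal cells, and DESeq2 and limma voom called 0. Among hypoxia genes Bhlhe40, a transcriptional repressor, was lower in basal TEBs (−1.02, edgeR FDR 0.0194), and Angptl4 was lower in luminal TEBs (−1.42, edgeR FDR 0.0312) and in the average (−1.06, edgeR FDR 0.0143), as was Cited2, an inhibitor of the factors' co-activator binding (−0.64 in the average, edgeR FDR 0.0469). Without TMM scaling none of these hypoxia genes was called between TEBs and ducts in basal cells, luminal cells or the average, and limma voom called Car12 and Plod2 higher in basal TEBs. The adipocyte markers (Adipoq, Plin1, Cidec, Fabp4, Lep) summed to 4.07, 187 and 11.5 CPM in basal ducts and 2.14, 24.0 and 11.8 in basal TEBs. Their sums were 0 and 75.1 CPM in luminal ducts and 0.628, 5.28 and 9.34 in luminal TEBs. In basal ducts Adipoq alone was at 0 in the whole group, and in basal TEBs no marker was. Adipoq, Plin1, Cidec and Lep were at 0 in luminal ducts, where the 75.1 CPM was Fabp4 alone, and Adipoq and Lep in luminal TEBs. The part of these markers in Slc2a4, Pdk4 and Angptl4 was not tested. The erythroid genes found (5 of 6) summed to 31.3 CPM in luminal duct replicate 3.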
